A study of Homo sapiens with 12 samples.

Results

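The transcripts of 9 genes that carry or restrain the erythropoietin signal were followed in K562 cells, out of 58735 genes in the count table. The genes were chosen by name: the receptor chains EPOR and CSF2RB, the Janus kinases JAK2, JAK1 and TYK2, the transcription factor STAT3, the Src-family kinase LYN, and the brakes SH2B3 and PTPN6. All 9 passed the filter on low counts, which left 20821 genes tested. Erythropoietin binds EPOR on red cell precursors, and EPOR, which has no kinase of its own, then works through JAK2 bound to its tail. JAK2 phosphorylates the receptor and STAT factors, chiefly STAT5, which carry the signal to genes for survival and red cell maturation. The adaptor SH2B3 (LNK) and the phosphatase PTPN6 (SHP-1) are known to dampen this signal, and in polycythemia vera an overactive JAK2 drives red cell production without much erythropoietin.

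K562 is an erythroleukemia cell line driven by BCR-ABL1, a fusion kinase that the tyrosine kinase inhibitor nilotinib blocks. RNA was sequenced in 4 groups of 3 biological replicates: mock DMSO and mock nilotinib without hemin, and hemin DMSO and hemin nilotinib with it. The nilotinib groups received the drug at 0.1 μM as a pretreatment and the hemin groups received hemin, an inducer of hemoglobin in these cells, at 50 μM for 24 h; mock libraries had no hemin, and all cells received the solvent DMSO. The labels name no added erythropoietin, and every library came from the same line. By the methods the pretreatment with drug or solvent lasted 24 h and cells were taken at 0 or 24 h after it, and the library names carry 0 for the mock groups and 24 for the hemin groups. Hemin and the further time in culture therefore cannot be told apart in the comparisons of hemin with mock. The study describes the hemin step as taking place with nilotinib present, though its methods name the drug only for the pretreatment. The drug exposure may therefore also differ between the mock and hemin groups, and be longer in hemin nilotinib than in mock nilotinib.

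Total counts ran from 33457078 to 50506990 a library, with a median of 37019327. The hemin DMSO libraries stood apart in composition: mitochondrial genes took 1.45 to 2.88% of their counts against 5.20 to 8.83% in the other 9 libraries, and their TMM factors (edgeR's correction for composition) were the lowest, at 0.844 to 0.943. Erythroid markers (GYPB, GATA1, KLF1, TAL1, HBG1, HBG2 and HBZ) were all above 1 CPM (counts of a gene per 1000000 counts, scaled by TMM) in every group. Their summed level was 905 to 1379 CPM in mock DMSO, 6140.2 to 7857 CPM in mock nilotinib, 832 to 909.7 CPM in hemin DMSO, and 7237 to 12733 CPM with both agents. HBZ was the largest member of the sum in every nilotinib library, averaging 2911 CPM in mock nilotinib and 5690 CPM in hemin nilotinib. GATA1 averaged 376 and 317 CPM in these groups, so the members did not rise evenly. The like sums of mock DMSO and hemin DMSO hold members that lay apart in both directions. The erythroid factor KLF1 averaged 284 CPM in mock DMSO and 24.0 CPM in hemin DMSO, TAL1 244 and 88.6 CPM, and GATA1 296 and 158 CPM. The globin genes lay the other way, HBZ at 79.7 and 185 CPM, HBG1 at 195 and 349 CPM and HBG2 at 17.2 and 33.4 CPM. Summed myeloid markers went the other way, from 133 to 150 CPM in mock DMSO and 99.4 to 126 CPM in hemin DMSO to 20.3 to 23.7 CPM in mock nilotinib and 12.3 to 15.6 CPM in hemin nilotinib. Between mock DMSO and hemin DMSO this sum also held members on both sides. SPI1 averaged 74.9 and 59.7 CPM, CD33 31.9 and 11.7 CPM, LYZ 31.0 and 24.7 CPM and ITGAM 5.51 and 3.12 CPM. CD14, at 0.496 and 9.40 CPM, and CSF1R, at 0.204 and 1.70 CPM, lay the other way. CSF1R averaged 0.373 CPM in mock nilotinib, above its mean in mock DMSO. MPO, a granulocyte enzyme, was near the limit of detection with and without nilotinib, at no more than 0.287 CPM in any library. The part of these marker shifts in the results below was not tested, and fewer cells of a type cannot be told apart from less RNA per cell in bulk RNA.

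The sequence just upstream of the start sites is shown for EPOR, JAK2 and TYK2, the members that rose with nilotinib, 250 bases each, from RefSeq on GRCh38.p14 and written 5′ to 3′ on the gene's strand. Capitals mark letters of the GATA type, which are GATA preceded by A or T and followed by A or G on either strand, and which erythroid GATA factors are known to bind.
EPOR, chr19:11384315-11384564, minus strand: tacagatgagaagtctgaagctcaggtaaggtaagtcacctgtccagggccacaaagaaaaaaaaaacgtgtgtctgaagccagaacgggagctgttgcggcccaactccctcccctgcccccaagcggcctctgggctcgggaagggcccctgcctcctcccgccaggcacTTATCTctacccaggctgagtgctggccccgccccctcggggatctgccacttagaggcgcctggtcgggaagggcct
JAK2, chr9:4984140-4984389, plus strand: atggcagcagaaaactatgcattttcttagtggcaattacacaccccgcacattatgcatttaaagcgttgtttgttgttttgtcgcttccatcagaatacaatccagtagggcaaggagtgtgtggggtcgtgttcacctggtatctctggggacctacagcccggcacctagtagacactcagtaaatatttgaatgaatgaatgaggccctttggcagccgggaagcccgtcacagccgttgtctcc
TYK2, chr19:10380573-10380822, minus strand: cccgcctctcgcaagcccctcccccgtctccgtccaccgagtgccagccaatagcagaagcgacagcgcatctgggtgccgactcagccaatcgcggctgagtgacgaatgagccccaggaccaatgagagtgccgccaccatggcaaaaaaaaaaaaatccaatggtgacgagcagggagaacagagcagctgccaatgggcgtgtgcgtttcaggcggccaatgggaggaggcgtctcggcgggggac
The EPOR window held TTATCT, the reverse complement of AGATAA, with its first base at position -78 from the start site, whereas the JAK2 and TYK2 windows shown held none of these letters. RefSeq promoters, from 250 bases before to 50 after a start site, were found for 7 of the 9 members, in 14 windows since some genes have several starts. GATA-type letters stood in 4 of the 14 windows (28.6%), those of EPOR, JAK1, SH2B3 and PTPN6, against 25% of 35116 promoters. No member window held TTCNNNGAA, the STAT-type letters found in 7.66% of promoters, or CCACACCC, a KLF1-type box found in 3.28%. A match is a description of letters and not of binding.

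EPOR, the receptor itself, spanned the widest range of the 9 members. Its level in replicates 1, 2 and 3 was 33.8, 41.5 and 49.6 CPM in mock DMSO, and 176, 159 and 160.3 CPM in mock nilotinib. It was 9.001, 6.34 and 7.65 CPM in hemin DMSO, and 202, 134 and 131 CPM in hemin nilotinib. Every nilotinib library was above every library without the drug, and the hemin DMSO libraries were the lowest of all, so the groups without nilotinib did not overlap each other either. With hemin present, nilotinib raised EPOR by 4.35 ± 0.21 on the log2 scale (SE, n = 3 against 3), a 20.3-fold difference, at an adjusted p of 1.41e-10 in edgeR's quasi-likelihood test over all genes. Without hemin the rise was 1.99 ± 0.18, or 3.96-fold (adjusted p = 3.81e-07). With hemin alone EPOR fell by 2.44 ± 0.19 on the log2 scale, a 5.43-fold fall (adjusted p = 7.27e-08), whereas in the presence of nilotinib hemin left a difference of -0.08 with a 95% interval from -0.46 to 0.30 (adjusted p = 0.835). The order of the levels was therefore mock nilotinib and hemin nilotinib, which did not differ beyond their spread, then mock DMSO, then hemin DMSO. EPOR was among the genes that the study picked from these libraries, so its direction is not independent evidence. Replicate 1 of hemin nilotinib was 202 CPM against 131 and 134 CPM in the other 2 libraries of that group.

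**Figure D1:**
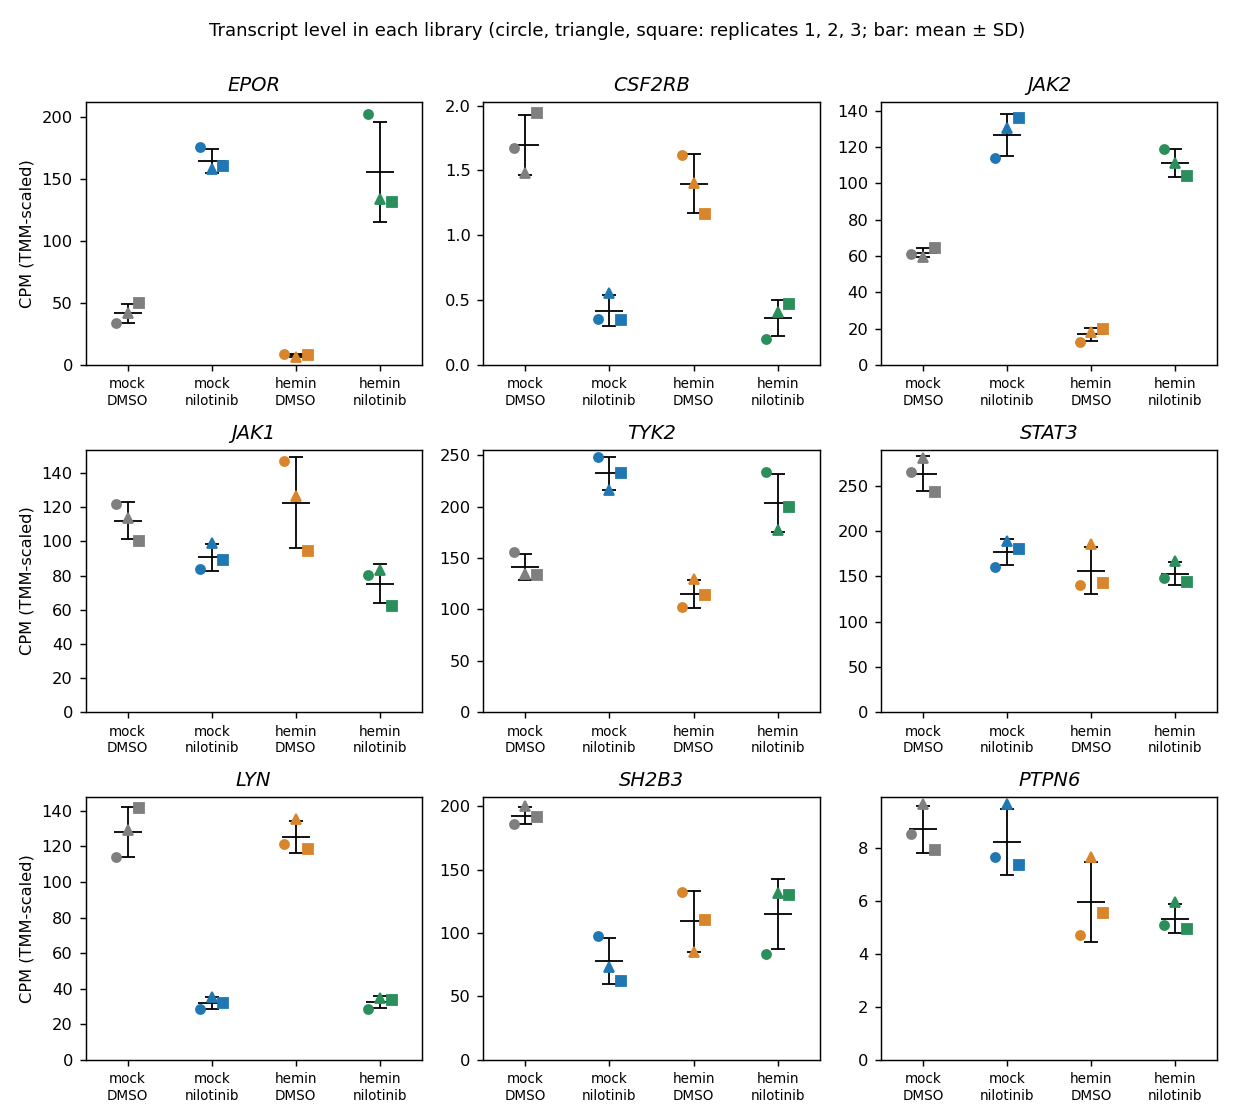
Level of each of the 9 genes in CPM scaled by TMM (vertical axes, each from 0) in the 4 groups; points are the 3 libraries of a group, and bars are the mean ± SD. EPOR and JAK2 were lowest in hemin DMSO (7.67 and 16.8 CPM) and high in both nilotinib groups, whereas LYN and CSF2RB were low in both nilotinib groups.

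CSF2RB, the common beta chain of the interleukin-3, interleukin-5 and GM-CSF receptors, fell with nilotinib from an already low level. It held 62 to 101 reads a library in mock DMSO and 44 to 53 in hemin DMSO, against 12 to 19 in mock nilotinib and 7 to 20 in hemin nilotinib. The mean level was 1.70 ± 0.232 CPM (SD, n = 3) in mock DMSO against 0.418 ± 0.118 CPM in mock nilotinib, and 1.40 ± 0.229 CPM in hemin DMSO against 0.360 ± 0.140 CPM with both agents. The libraries with and without nilotinib did not overlap. With nilotinib CSF2RB fell by 1.93 ± 0.36 on the log2 scale with hemin (adjusted p = 0.000229) and fell by 2.02 ± 0.36 without it (adjusted p = 0.000251). Hemin left a difference of -0.28 without nilotinib (95% interval -0.97 to 0.40) and of -0.20 with it (-1.02 to 0.63). These intervals are wide, and few reads support the gene.

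JAK2, the kinase that EPOR works through, followed the same order of groups as its receptor over a narrower range. Replicates 1, 2 and 3 gave 61.0, 59.6 and 64.6 CPM in mock DMSO, and 114, 131 and 136 CPM in mock nilotinib. They gave 12.5, 18.3 and 19.5 CPM in hemin DMSO, and 119, 111 and 104 CPM in hemin nilotinib. No library of hemin DMSO or mock DMSO reached a nilotinib library. Nilotinib raised JAK2 by 2.73 ± 0.16 on the log2 scale with hemin (6.63-fold, adjusted p = 8.71e-10) and by 1.04 ± 0.15 without it (2.05-fold, adjusted p = 3.34e-05). With hemin alone JAK2 fell by 1.88 ± 0.15 on the log2 scale (3.68-fold, adjusted p = 9.56e-08). With nilotinib the hemin difference was -0.19 (95% interval -0.50 to 0.12, adjusted p = 0.488), so that mock nilotinib and hemin nilotinib, at the top of the order, did not differ beyond their spread.

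The 2 other kinases of the family among the members moved apart. JAK1, which serves interferon and gp130 cytokine receptors, was at 122, 114 and 101 CPM in mock DMSO and at 83.8, 99.2 and 88.8 CPM in mock nilotinib. It was at 147, 126 and 94.2 CPM in hemin DMSO and at 80.5, 83.0 and 62.1 CPM in hemin nilotinib. The nilotinib libraries lay below their controls in each setting, though hemin DMSO replicate 3 lay within the range of mock nilotinib. JAK1 fell by 0.71 ± 0.16 on the log2 scale with nilotinib under hemin (1.63-fold, adjusted p = 0.00120), and the difference without hemin was -0.31 (95% interval -0.65 to 0.03, adjusted p = 0.137). Fitted on those 6 libraries alone, the latter passed the threshold, at -0.31 with an adjusted p of 0.0215. Hemin left 0.13 without nilotinib (-0.21 to 0.47, and -0.12 where library totals replaced the TMM factors) and -0.27 with it (-0.61 to 0.07).

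TYK2, a partner of interferon and interleukin-12 receptors, rose with nilotinib, and by mean level its groups lay in the same order as those of EPOR and JAK2. It stood at 156, 135 and 133 CPM in mock DMSO and 248, 216 and 232 CPM in mock nilotinib, and at 102, 129 and 114 CPM in hemin DMSO and 233, 177 and 199 CPM in hemin nilotinib. The ranges with and without nilotinib did not overlap. The rise was 0.82 ± 0.14 on the log2 scale with hemin (1.77-fold, adjusted p = 7.25e-05) and 0.72 ± 0.14 without it (1.64-fold, adjusted p = 0.000496). Hemin without nilotinib left -0.30 (95% interval -0.58 to -0.01, adjusted p = 0.0776). That difference passed the threshold without hemin DMSO replicate 2 (-0.38, adjusted p = 0.0338) and with library totals alone (-0.54, adjusted p = 0.00283).

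Since levels of different genes can be compared only per length, each level was divided by the gene length in kilobases before the kinases were set side by side. The summed level of JAK1, JAK2, JAK3 and TYK2 was 48.7 ± 3.26 CPM per kilobase in mock DMSO, 69.2 ± 1.11 in mock nilotinib, 39.4 ± 3.81 in hemin DMSO and 60.0 ± 5.65 in hemin nilotinib (SD, n = 3). JAK2 made up 18.9, 20.3 and 22.7% of this sum in mock DMSO and 27.0, 30.7 and 31.3% in mock nilotinib. It made up 4.97, 6.999 and 8.997% in hemin DMSO and 28.96, 31.3 and 30.0% in hemin nilotinib. Transcripts of the kinase of the erythropoietin receptor thus held the smallest of the 3 main shares in every library without nilotinib. They held a larger share than those of JAK1 in every library with it. JAK1 made up 36.4 ± 1.69% in mock DMSO, 20.7 ± 1.84% in mock nilotinib, 49.0 ± 7.55% in hemin DMSO and 19.9 ± 2.77% in hemin nilotinib. TYK2 held 42.8 ± 1.14, 49.5 ± 3.66, 43.3 ± 5.53 and 50.0 ± 3.73% in the same order of groups, and JAK3, the kinase of lymphoid cytokine receptors, stayed under 0.72% in every library. The JAK2 to JAK1 ratio per kilobase was 0.569 ± 0.0783 in mock DMSO, 1.44 ± 0.117 in mock nilotinib, 0.149 ± 0.0625 in hemin DMSO and 1.53 ± 0.173 in hemin nilotinib. With 3 libraries a group an exact permutation test cannot go below p = 0.1, so the shares and ratios are given as descriptions.

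**Figure D2:**
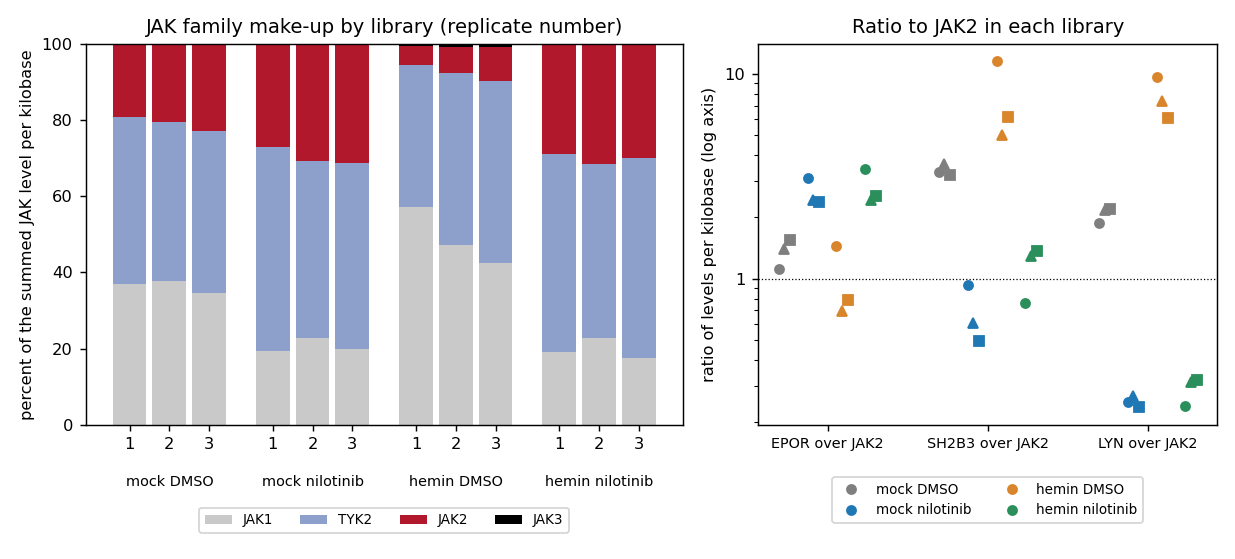
Left, percent of the summed JAK family level per kilobase held by each kinase in each of the 12 libraries; right, ratio of EPOR, SH2B3 and LYN to JAK2 per kilobase on a log axis, 3 libraries a group, with a dotted line at equal levels. JAK2 held 4.97 to 8.997% in hemin DMSO and 28.96 to 31.3% in hemin nilotinib, and LYN was above JAK2 in every library without nilotinib and below it in every library with it.

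Per kilobase, EPOR ranked 1 of the 9 members in both nilotinib groups, at 53.6 ± 3.10 CPM per kilobase in mock nilotinib and 50.7 ± 13.1 in hemin nilotinib. It ranked 6 in mock DMSO at 13.5 ± 2.57 and 7 in hemin DMSO at 2.49 ± 0.431. The ratio of EPOR to JAK2 per kilobase was 1.35 ± 0.218 in mock DMSO, 2.63 ± 0.405 in mock nilotinib, 0.9752 ± 0.409 in hemin DMSO and 2.79 ± 0.544 in hemin nilotinib. Transcripts of the receptor were the more abundant of the pair in all 6 nilotinib libraries, at ratios from 2.36 to 3.42, and also in all 3 mock DMSO libraries, at 1.11 to 1.54, while in hemin DMSO the ratio ranged from 0.695 to 1.44.

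STAT3, a transcription factor activated by JAK kinases, was highest in mock DMSO, with 266, 281 and 243 CPM. The other groups lay below it, at 161, 189 and 181 CPM in mock nilotinib, 141, 186 and 142 CPM in hemin DMSO and 149, 167 and 144 CPM in hemin nilotinib. These 3 groups overlapped each other and none reached the lowest mock DMSO library. STAT3 fell by 0.57 ± 0.14 on the log2 scale with nilotinib without hemin (adjusted p = 0.00287) and fell by 0.75 ± 0.14 with hemin without nilotinib (adjusted p = 0.000237). The remaining differences were -0.03 for nilotinib with hemin (95% interval -0.32 to 0.26, and 0.16 where library totals replaced the TMM factors) and -0.21 for hemin with nilotinib (-0.50 to 0.08).

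LYN, a Src-family kinase that is known to associate with EPOR and with BCR-ABL1 signalling, separated the libraries by nilotinib alone. It stood at 114, 129 and 142 CPM in mock DMSO and 121, 136 and 119 CPM in hemin DMSO. With the drug it stood at 28.7, 35.1 and 32.1 CPM in mock nilotinib and 28.5, 34.9 and 33.5 CPM in hemin nilotinib. LYN fell by 1.96 ± 0.13 on the log2 scale with hemin (3.88-fold, adjusted p = 5.50e-09) and fell by 2.01 ± 0.13 without it (4.01-fold, adjusted p = 1.02e-08). The hemin differences were -0.03 without nilotinib (95% interval -0.31 to 0.24) and 0.02 with it (-0.26 to 0.29), and the sign of each changed under another scaling. The ratio of LYN to JAK2 per kilobase was 2.07 ± 0.181 in mock DMSO, 0.251 ± 0.0166 in mock nilotinib, 7.73 ± 1.83 in hemin DMSO and 0.292 ± 0.0454 in hemin nilotinib.

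SH2B3, the adaptor that restrains JAK2, was highest in mock DMSO at 186, 200.2 and 191 CPM and lowest in mock nilotinib at 97.9, 73.4 and 62.3 CPM. It was at 132, 84.8 and 110.2 CPM in hemin DMSO and at 83.3, 131 and 130 CPM in hemin nilotinib, so the hemin groups overlapped each other and mock nilotinib. With nilotinib SH2B3 fell by 1.31 ± 0.20 on the log2 scale without hemin (2.47-fold, adjusted p = 6.76e-05). With hemin the difference was 0.07 (95% interval -0.34 to 0.49, adjusted p = 0.758), and it was negative without hemin DMSO replicate 2 (-0.08) or hemin nilotinib replicate 2 or 3. With hemin alone it fell by 0.82 ± 0.20 (adjusted p = 0.00243). Hemin with nilotinib left 0.56 ± 0.20 (adjusted p = 0.107), which became 0.74 with an adjusted p of 0.00946 without hemin nilotinib replicate 1, the library with the lowest SH2B3 and the highest EPOR of its group. The ratio of SH2B3 to JAK2 per kilobase was 3.39 ± 0.225 in mock DMSO, 0.680 ± 0.226 in mock nilotinib, 7.56 ± 3.47 in hemin DMSO and 1.14 ± 0.326 in hemin nilotinib. Transcripts of the brake were thus above those of the kinase in all 6 libraries without nilotinib, at ratios from 3.22 to 11.5. In the 6 libraries with it they were from 0.497 to 1.36 times those of the kinase.

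PTPN6, a phosphatase of blood cells, was a low transcript in every group, with 154 to 474 reads a library. It stood at 8.52, 9.68 and 7.93 CPM in mock DMSO, 7.68, 9.68 and 7.38 CPM in mock nilotinib, 4.71, 7.65 and 5.55 CPM in hemin DMSO and 5.11, 5.98 and 4.93 CPM in hemin nilotinib. All 3 hemin nilotinib libraries were below the mock nilotinib libraries. PTPN6 fell by 0.54 ± 0.21 on the log2 scale with hemin without nilotinib (adjusted p = 0.0355). This call was lost without mock DMSO replicate 2 (-0.48, adjusted p = 0.118), hemin DMSO replicate 1 (-0.39, adjusted p = 0.149) or hemin DMSO replicate 3 (-0.48, adjusted p = 0.116). It was also lost with DESeq2's size factors in edgeR (-0.50, adjusted p = 0.0534) and with limma-trend on the FPKM at pseudocounts of 1 and 0.1 (adjusted p = 0.0554 and 0.0624). Hemin with nilotinib left -0.63 ± 0.21 (adjusted p = 0.0876), and with the replicate number as a block, which pairs these libraries, it was -0.62 at an adjusted p of 0.0397. Nilotinib left -0.16 with hemin (95% interval -0.60 to 0.28) and -0.08 without it (-0.51 to 0.35).

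**Figure D3:**
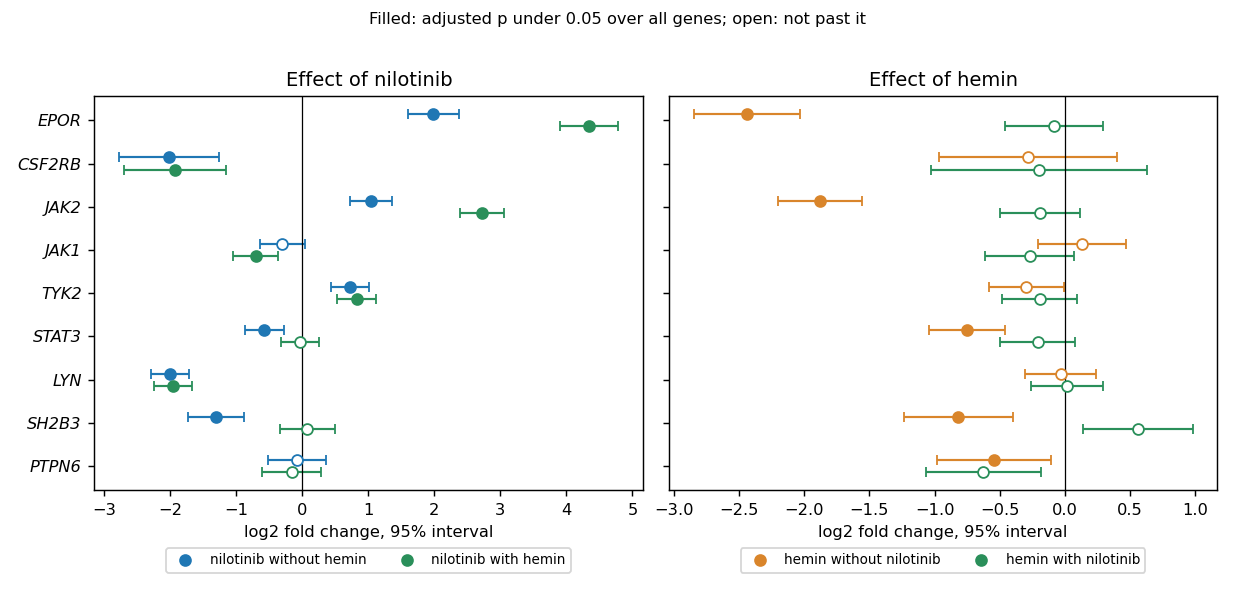
Log2 fold change of each gene with its 95% interval (horizontal axis), for nilotinib with and without hemin (left) and for hemin with and without nilotinib (right); filled points passed an adjusted p of 0.05 over all genes and open points did not. EPOR and JAK2 have the longest rises at left (4.35 and 2.73 with hemin), and every point for hemin with nilotinib is open.

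Counted together, nilotinib with hemin changed 6 of the 9 genes: EPOR, JAK2 and TYK2 rose and CSF2RB, JAK1 and LYN fell, while 32.4% of all genes tested rose and 31.8% fell. The median log2 fold change was -0.03 over the 9 genes and 0.02 over all genes. Nilotinib without hemin changed 7 of the 9, with EPOR, JAK2 and TYK2 higher and CSF2RB, LYN, SH2B3 and STAT3 lower, against backgrounds of 20.7% higher and 21.8% lower. EPOR, JAK2 and TYK2 thus rose and CSF2RB and LYN fell in both settings, though each setting has its own controls and its own 6 libraries. The share of members called in nilotinib with hemin, 6 of 9, was near the background of that comparison.

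Hemin without nilotinib lowered 5 of the 9 genes, EPOR, JAK2, SH2B3, STAT3 and PTPN6, and raised none, while 27.8% of all genes tested were lower and 25.7% higher. The median was -0.54 over the members and -0.05 over all genes. With library totals in place of the TMM factors the median of all genes moved by -0.24 in this comparison, and 33.87% of the genes called were higher in place of 48.05%. With TMM the 5 log2 differences were -2.44 for EPOR, -1.88 for JAK2, -0.82 for SH2B3, -0.75 for STAT3 and -0.54 for PTPN6. PTPN6 lost its call with DESeq2's size factors in edgeR (-0.50, adjusted p = 0.0534). TMM and library totals both give levels relative to the other RNA of a library, so a change in total RNA was not tested.

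Hemin with nilotinib moved none of the 9 past the threshold in edgeR, while 3.52% of all genes tested were higher and 2.28% lower. PTPN6 and SH2B3, 2 members, were under 0.05 before adjustment. PTPN6 was called lower by DESeq2 (-0.64, adjusted p = 0.0304) and in edgeR with the replicate block, which pairs these libraries (-0.62, adjusted p = 0.0397). SH2B3 was called higher in edgeR with all genes of at least 1 count (0.56, adjusted p = 0.0117) and without hemin nilotinib replicate 1. With library totals 49.16% of all genes called were higher, in place of 60.68%. The intervals given above for EPOR and JAK2 leave out a fall of the size measured without nilotinib.

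The nilotinib difference with hemin was compared with that without hemin as an interaction in the same fit. Since the groups with hemin were also collected later and may have had a longer drug exposure, the interaction cannot tell hemin apart from time. It was higher for 4 of the 9 genes and lower for 0, against 17.1% and 13% of all genes tested. The extra change with hemin was 2.36 ± 0.26 on the log2 scale for EPOR (adjusted p = 1.55e-05) and 1.69 ± 0.21 for JAK2 (adjusted p = 4.11e-05). For SH2B3 it was 1.38 ± 0.28 (adjusted p = 0.00184), since SH2B3 fell with nilotinib without hemin and did not pass the threshold with it. For STAT3 it was 0.54 ± 0.19 (adjusted p = 0.0426). That call was lost under DESeq2 (0.49, adjusted p = 0.0603) and with DESeq2's size factors in edgeR (0.49, adjusted p = 0.0732). It was lost with limma-trend on the FPKM at pseudocounts of 1 and 0.1 (adjusted p = 0.0520 and 0.0553). Leaving out mock DMSO replicate 2, hemin DMSO replicate 1 or 3, any mock nilotinib replicate or hemin nilotinib replicate 2 also removed it, with adjusted p of 0.0544 to 0.114. TYK2, LYN, CSF2RB, PTPN6 and JAK1 did not pass, with estimates of 0.10, 0.05, 0.09, -0.08 and -0.40 and 95% intervals of which the widest, that of CSF2RB, ran from -1.003 to 1.18. With library totals the median of all genes moved by 0.21 and 73.26% of the genes called were higher, in place of 56.74%, and with the deposited FPKM (pseudocount 1) 46.41% were.

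Hemin and nilotinib together against mock DMSO changed all 9 genes, against backgrounds of 24.2% higher and 22.4% lower. EPOR (1.91 ± 0.18), JAK2 (0.85 ± 0.15) and TYK2 (0.53 ± 0.14) were higher on the log2 scale. CSF2RB (-2.21), LYN (-1.99), STAT3 (-0.78), SH2B3 (-0.75), PTPN6 (-0.71) and JAK1 (-0.58) were lower. The adjusted p of the 9 ran from 1.14e-08 for LYN to 0.0108 for PTPN6, and PTPN6 alone lost its call when a library was left out, mock DMSO replicate 2 (-0.63, adjusted p = 0.0526).

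Nilotinib alone against hemin alone, each 3 libraries, changed 7 of the 9, against 32.5% higher and 33.4% lower among all genes tested. EPOR was 21.5-fold higher under nilotinib (4.43 ± 0.21 on the log2 scale, adjusted p = 8.90e-11), JAK2 7.56-fold (2.92 ± 0.16) and TYK2 2.02-fold (1.01 ± 0.14). LYN (-1.97) and CSF2RB (-1.73) were lower. JAK1 (-0.44, adjusted p = 0.0248) and SH2B3 (-0.49, adjusted p = 0.0392) were lower too, but their libraries overlapped, and both calls were lost with library totals alone and when hemin DMSO replicate 1 was left out (-0.28 and -0.32). JAK1 also lost its call without hemin DMSO replicate 2, mock nilotinib replicate 1 or mock nilotinib replicate 3, and SH2B3 without hemin DMSO replicate 3, mock nilotinib replicate 2 or mock nilotinib replicate 3. PTPN6 left 0.47 ± 0.21 (adjusted p = 0.0588), which was 0.48 with an adjusted p of 0.0224 with the replicate block. It also passed with library totals (0.68, adjusted p = 0.00724) and without hemin DMSO replicate 2 (0.69, adjusted p = 0.009998). STAT3 left 0.18 (adjusted p = 0.258) and passed in the same settings, at 0.40 (adjusted p = 0.00897) and 0.33 (adjusted p = 0.0350).

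The wider pathway was read from 5 lists of genes that do not include the members, against median log2 fold changes over all genes of 0.02 for nilotinib with hemin, 0.004 without it, -0.05 for hemin without nilotinib and 0.03 with it. Of all genes tested, 32.4% were higher and 31.8% lower for nilotinib with hemin, and 20.7% and 21.8% without it. For hemin without nilotinib 25.7% were higher and 27.8% lower, and with nilotinib 3.52% and 2.28%. Of the ligand and receptor list, 19 of 24 genes were tested; EPO, IL5RA and PRLR were too low to test, and CSF2RA and CRLF2 were at or under 3 counts in every library. Nilotinib with hemin raised 3 and lowered 10 of the 19 (15.8 and 52.6%), with a median log2 fold change of -0.44. TFR2, a transferrin receptor that also binds EPOR, rose by 1.56 ± 0.17 (adjusted p = 9.71e-07), from 127 to 218 CPM in hemin DMSO to 454 to 522 CPM in hemin nilotinib. The interferon receptor chain IFNAR1 rose by 0.99 ± 0.14. CSF3R, the G-CSF receptor of the granulocyte line, fell by 3.73 ± 0.29, and IL10RA fell by 4.11 ± 0.27, each to at most 0.654 CPM in hemin nilotinib. Without hemin nilotinib raised 5 and lowered 7 (26.3 and 36.8%), with TFR2 at 0.96, CSF3R at -5.07 and IL10RA at -4.15, all past the threshold, and IFNAR1 at 0.22, which was not. The number higher was 3 when any of mock DMSO replicates 1, 2 and 3 or mock nilotinib replicate 2 was left out. Hemin without nilotinib raised 5 and lowered 7, TFR2 (-1.05), IFNAR1 (-0.75), CSF3R (-1.30) and IL10RA (-0.78) among the latter, and hemin with nilotinib lowered 2 and raised none. The medians of the list were -0.42 for nilotinib without hemin, -0.37 for hemin without nilotinib and -0.13 with it.

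Of the other kinases and STATs, 12 of 13 were tested, FGR being too low. Nilotinib with hemin raised 5, STAT2, STAT5A, STAT5B, STAT6 and the Tec-family kinase TEC, and lowered 4, JAK3, LCK, SRC and YES1 (41.7 and 33.3%), with a median of 0.37. STAT6, the factor of the interleukin-4 receptor, rose by 1.70 ± 0.12 (adjusted p = 6.42e-09), and TEC rose by 1.11 ± 0.17 (adjusted p = 3.64e-05), from 17.5 to 20.6 CPM in hemin DMSO to 30.3 to 49.6 CPM in hemin nilotinib. STAT5A and STAT5B, the main STATs of the erythropoietin receptor, are given here after their values were seen. STAT5A rose by 0.99 ± 0.21 with hemin (adjusted p = 0.000641) and fell by 1.18 ± 0.21 without it (adjusted p = 0.000288), and with hemin alone it fell by 2.51 ± 0.22 (adjusted p = 1.93e-07). The difference between its nilotinib effects passed the test as well (2.17 ± 0.30, adjusted p = 8.91e-05). STAT5B rose by 0.66 ± 0.14 with hemin (adjusted p = 0.000838) and was at 0.25 without it, which did not pass. The Src-family kinases YES1 and SRC fell by 1.35 ± 0.12 and fell by 1.25 ± 0.17, the same direction as LYN. FYN, of the same family and given here after its values were seen, was at -0.11 with hemin, which did not pass, and rose by 0.41 ± 0.12 without it (adjusted p = 0.0118), a call that was lost without mock DMSO replicate 1 (0.32, adjusted p = 0.0988) or mock nilotinib replicate 2 (0.34, adjusted p = 0.0936). Without hemin nilotinib raised 5 and lowered 3 (41.7 and 25%), with STAT6 at 0.72, TEC at 0.50, YES1 at -1.36 and SRC at -0.70, and the number higher was 2 without mock DMSO replicate 1 or mock nilotinib replicate 2. The call of TEC there was lost without mock DMSO replicate 1 or 2 or mock nilotinib replicate 2 or 3 (0.36 to 0.47, adjusted p of 0.0735 to 0.152). Hemin without nilotinib raised 4, SRC (0.89) among them, and lowered 5, STAT6 (-1.36) among them, and TEC at -0.37 did not pass. Hemin with nilotinib called none of the 12 in edgeR, and 1 was higher without hemin nilotinib replicate 1. The medians were 0.08 for nilotinib without hemin, -0.10 for hemin without nilotinib and -0.15 with it.

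All 21 other brakes were tested. Nilotinib with hemin raised 5 and lowered 11 (23.8 and 52.4%), with a median of -0.62. SOCS3, which blocks JAK kinases and is itself induced by STATs, fell by 3.89 ± 0.23 (adjusted p = 1.12e-09), from 57.1 to 62.8 CPM in hemin DMSO to 2.61 to 4.83 CPM in hemin nilotinib. DOK2, a docking protein of tyrosine kinases, fell by 2.64 ± 0.31. The lipid phosphatase INPP5D (SHIP1) rose by 1.79 ± 0.17 and the docking protein DOK1 by 0.87 ± 0.16. Without hemin 4 rose and 11 fell (19 and 52.4%), with SOCS3 at -3.44, DOK2 at -1.10 and INPP5D at 0.65, while DOK1 at -0.22 did not pass. Hemin without nilotinib raised 8 and lowered 9. SOCS3 (0.79) and DOK2 (0.91) were higher there and INPP5D (-1.34) and DOK1 (-1.27) lower, DOK2 losing its call without mock DMSO replicate 3 (0.64, adjusted p = 0.0939), and the number higher was 3 without mock DMSO replicate 1. Hemin with nilotinib lowered 1 and raised none. The medians were -0.42 for nilotinib without hemin, 0.09 for hemin without nilotinib and -0.01 with it.

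Of the adaptors and effectors, 19 of 20 were tested, RHEX being too low. Nilotinib with hemin raised 7 and lowered 7 (36.8% each, near the shares over all genes), with a median of -0.19. GAB1, a docking protein that links receptors to PI3-kinase, rose by 3.72 ± 0.16 (adjusted p = 5.65e-11), from 8.05 to 9.53 CPM in hemin DMSO to 97.3 to 133 CPM in hemin nilotinib. STAM, an endosomal adaptor, rose by 1.64 ± 0.14. GAB2, a docking protein known as a partner of BCR-ABL1, fell by 1.87 ± 0.19, so GAB1 and GAB2 moved in opposite directions. VAV1, an exchange factor of blood cells, fell by 1.91 ± 0.19. Without hemin 4 rose and 6 fell (21.1 and 31.6%), with GAB1 at 2.37, STAM at 1.06, GAB2 at -2.29 and VAV1 at -2.00, all past the threshold. The counts there were 2 higher and 4 lower without mock DMSO replicate 2, mock DMSO replicate 3 or mock nilotinib replicate 3. Hemin without nilotinib raised 2 and lowered 10, including GAB1 (-1.39), VAV1 (-0.85), GAB2 (-0.59) and STAM (-0.46). Hemin with nilotinib lowered VAV1 alone (-0.77 ± 0.19, adjusted p = 0.0272), a call lost without mock nilotinib replicate 1 or 2 or hemin nilotinib replicate 2 or 3, with adjusted p of 0.0537 to 0.152. The medians were -0.08 for nilotinib without hemin, -0.46 for hemin without nilotinib and -0.01 with it.

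Of the genes known to be induced by the receptor, 11 of 12 were tested, DUSP6 being too low. Nilotinib with hemin raised 2 and lowered 5 (18.2 and 45.5%), with a median of -0.58. BCL2L1, the survival factor BCL-XL, rose by 0.57 ± 0.14 (adjusted p = 0.00245), from 28.0 to 41.1 CPM in hemin DMSO to 47.4 to 53.8 CPM in hemin nilotinib. TFRC, the transferrin receptor, rose by 1.83 ± 0.51 (adjusted p = 0.00493), but its hemin nilotinib libraries were 2843, 519 and 428 CPM, and without replicate 1 the rise was 0.43 with an adjusted p of 0.103. The immediate early gene EGR1 fell by 3.55 ± 0.31 and the pseudokinase TRIB3 by 2.79 ± 0.23. Without hemin 2 rose and 8 fell (18.2 and 72.7%). BCL2L1 fell by 1.45 ± 0.15 on the log2 scale there, at 53.3 to 66.4 CPM in mock nilotinib against 157 to 180 CPM in mock DMSO, so nilotinib moved it in opposite directions with and without hemin (interaction 2.02 ± 0.20, adjusted p = 7.92e-06). TFRC was at 2.12, EGR1 at -3.30 and TRIB3 at -3.36, all past the threshold. Hemin without nilotinib raised 2 and lowered 5, BCL2L1 (-2.27) among them, while hemin with nilotinib raised 1 and lowered 1. Without hemin nilotinib replicate 1 the latter counts were 4 higher and 2 lower. The medians were -1.45 for nilotinib without hemin, -0.60 for hemin without nilotinib and 0.13 with it. The few calls of hemin with nilotinib in the lists rested on particular libraries. The receptor list had 0 calls without mock nilotinib replicate 2 or 3 or hemin nilotinib replicate 2 and 1 without hemin nilotinib replicate 3. The brakes had 0 without any mock nilotinib replicate or hemin nilotinib replicate 2 or 3 and 3 without hemin nilotinib replicate 1. The targets had 0 without mock nilotinib replicate 2 or 3 or hemin nilotinib replicate 2 and 1 without hemin nilotinib replicate 3.

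**Figure D4:**
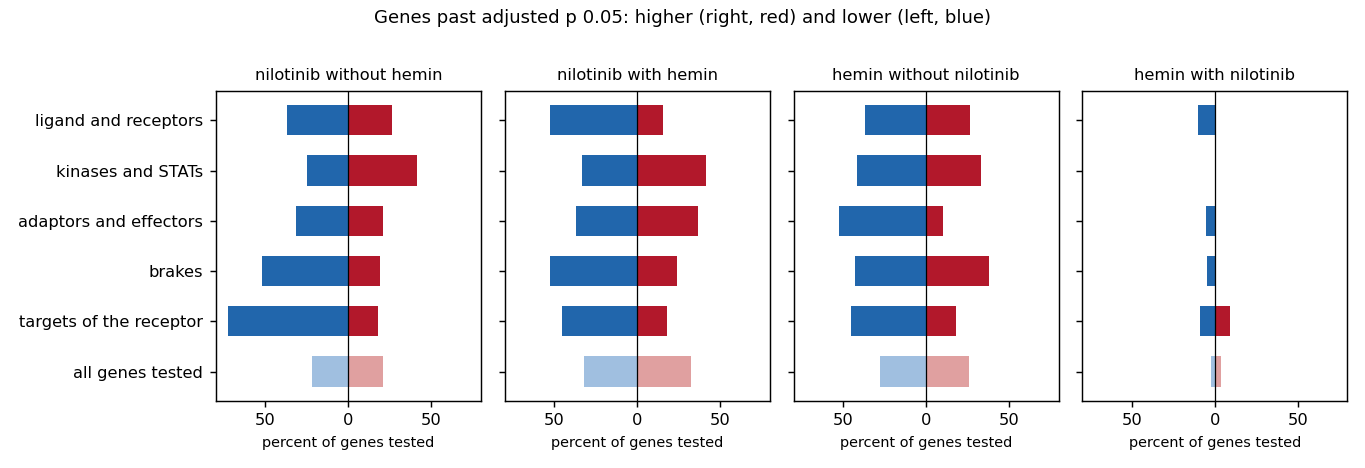
Percent of the genes tested in each of the 5 pathway lists that were higher (red, right) or lower (blue, left) at an adjusted p of 0.05, beside all genes tested (pale bars), in 4 comparisons. Hemin with nilotinib has few calls in every list, and the targets of the receptor reach 8 of 11 lower for nilotinib without hemin.

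Among the 12494 genes with a mean of at least 100 counts, those whose log2 level followed EPOR most closely over the 12 libraries were WRN (r = 0.997), AL627309.1 (r = 0.996), LYSMD4 (r = 0.995), GAB3 (r = 0.995) and PACRGL (r = 0.994). For JAK2 they were GFI1B (r = 0.998), LDB1 (r = 0.995), WNK4 (r = 0.995), METTL21A (r = 0.995) and BX890604.2 (r = 0.995). For SH2B3 they were ALG1L13P (r = 0.958), SLC10A4 (r = 0.949), SLC7A1 (r = 0.948), FAM86B3P (r = 0.939) and SLC1A5 (r = 0.938), of which ALG1L13P and FAM86B3P are pseudogenes that can share reads with their relatives. These are descriptions over libraries that share 4 group means, and 1460 genes passed r = 0.9 with EPOR, 1299 with JAK2 and 9 with SH2B3.

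In the gene models that the counts rest on, the members lie on chromosomes 19 (EPOR and TYK2), 9 (JAK2), 1 (JAK1), 17 (STAT3), 22 (CSF2RB), 8 (LYN) and 12 (SH2B3 and PTPN6). EPOR spans chr19:11377205-11384342 on the minus strand with 3079 bases of exon, and JAK2 spans chr9:4984390-5128183 on the plus strand with 6170 bases (GRCh38). Exons of other genes overlapped 0.065% of EPOR on its own strand, and 0.0633% of JAK1 and 1.21% of SH2B3 on the opposite strand. None of the 150-base stretches of the transcripts of the 9 genes occurred in transcripts of another gene. Only exact matches to annotated transcripts were searched, so reads shared with a copy that differs by some bases were not tested.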

How the data were processed

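RNA of K562 cells was sequenced by a service on an Illumina NovaSeq as 150-base paired-end reads, in 12 libraries of 4 groups with 3 biological replicates each. The authors deposited raw read counts per gene, which were the input of every main test, and FPKM per gene and library, which were used only in alternatives. In the deposited FPKM, counts per kilobase are divided by median-of-ratios size factors, so they are not an independent normalization. The submitters' processing notes name GRCh38.p12, DESeq2 and DESeq; the aligner, counter and strand setting are not given in the sources used here. A table of group mean FPKM was not used.

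The tests ran in edgeR 4.0.16 under R 4.3.3: filterByExpr (minimum count 10, minimum total 15), TMM, and a quasi-likelihood fit over all 12 libraries with 1 mean per group. All p are two-sided and Benjamini-Hochberg adjusted over 20821 genes, with a threshold of 0.05. Log2 fold changes carry their SE, and 95% intervals come from the fit. Levels are TMM-scaled CPM, divided by gene length in kilobases where genes are compared. The comparisons share libraries, so they are not independent of each other. At 3 counts, the limit of detection used here, a level is 0.0539 to 0.0956 CPM, for counting error only.

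The 9 genes and the lists were chosen with earlier results of these data known. From each list, the 2 largest rises and 2 largest falls in nilotinib with hemin were named, among genes called whose mean was 100 counts or more. Alternatives were DESeq2 1.42.0, RLE factors, library totals, other filters, limma-trend (limma 3.58.1) on log2(FPKM + 1) and log2(FPKM + 0.1), the 6 libraries alone, the replicate block and each library left out. Leaving out libraries for the lists and their named genes was added after seeing the data. Replicate numbers come from the labels, and deviations of same-numbered libraries from their group means correlated above 0.1 in all 3 pairs between mock nilotinib and each of mock DMSO (0.131 to 0.141), hemin DMSO (0.103 to 0.152) and hemin nilotinib (0.332 to 0.373), and not between the other groups. Some genes are not reported here and were left out of the lists and marker sums. The edgeR test for nilotinib with hemin was tried on simulated counts with 200 changed genes, and the other procedures were not. Far more genes than that were called in the data, so the simulation does not show how the test behaves there. Gene models were those of GENCODE 29, and promoters were read in Python 3.11.15 from RefSeq on GRCh38.p14; figures were drawn with matplotlib 3.10.9.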

Additional observations from a re-analysis of the deposited data

Results flagged for a closer look

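For 4 of the 9 genes the nilotinib difference with hemin was not the same as that without it, as tested by the interaction in edgeR. Of all genes tested, 17.1% were higher and 13% lower in that interaction. The difference on the log2 scale was 2.36 for EPOR, 1.69 for JAK2, 1.38 for SH2B3 and 0.54 for STAT3. The call of STAT3 (adjusted p = 0.0426) was lost under DESeq2 (adjusted p = 0.0603) and with DESeq2's size factors in edgeR (adjusted p = 0.0732). It was also lost with limma-trend on the FPKM and when some single libraries were left out. For EPOR and JAK2 both effects were rises and the larger was with hemin, where the controls without nilotinib were lower (7.67 against 41.6 CPM for EPOR and 16.8 against 61.7 CPM for JAK2). For SH2B3 and STAT3 the effect without hemin was a fall, and that with hemin did not pass the threshold. The hemin DMSO libraries, which are the controls of the effect with hemin, also had the lowest mitochondrial share of counts (1.45 to 2.88%), and the part of this in the differences was not tested. The libraries with hemin were also collected later and may have had a longer drug exposure, which cannot be told apart from hemin here.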

How the results depend on the processing

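Of 983 alternative log2 fold changes of the 9 genes, 899 kept the direction and the side of the threshold, 29 lost a call, 12 gained a call and 43 changed sign, all 43 without a call in either setting. CSF2RB could not be tested with at least 10 counts in every library. Members called in hemin with nilotinib were 0 in the main analysis and 1 under DESeq2, with all genes of at least 1 count, with the replicate block, and at most when a library was left out (0 to 1). Over all genes that comparison called 733 higher and 475 lower in the main analysis. In all it called 1974 with DESeq2, 1987 with all genes of at least 1 count and 1587 with the replicate block. It called 741 and 694 with the FPKM at pseudocounts of 1 and 0.1, and 183 in its 6 libraries alone.

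The replicate block changed no call of the 9 genes beside those of PTPN6 for hemin with nilotinib (-0.62) and for nilotinib alone against hemin alone (0.48). Without division by gene length the TYK2 share of the JAK family in mock DMSO was 44.7% and the JAK2 share in hemin nilotinib 28.6%. With library totals alone, nilotinib with hemin was 0.16 for STAT3 and 0.0266 for PTPN6, hemin without nilotinib was -0.12 for JAK1, hemin with nilotinib was -0.0129 for LYN, and the interaction of PTPN6 was 0.14. With all genes of at least 1 count, STAT3 in nilotinib with hemin was 0.00916. For LYN, hemin without nilotinib was 0.00995 under DESeq2, 0.00997 with RLE factors, 0.00339 with at least 10 counts in every library, 3.71e-05 and 0.000177 with the FPKM at pseudocounts of 1 and 0.1, and 0.00683 in the 6 libraries alone. The interaction of LYN was -0.00614 under DESeq2, -0.00635 with RLE factors, and -3.70e-05 and -0.000154 with the FPKM. These LYN values lie so near 0 that their sign carries no information. The cause of the other sign changes was not tested.

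With each library left out in turn, values of both signs were found for nilotinib with hemin in STAT3 (-0.10 to 0.12), SH2B3 (-0.0758 to 0.271) and PTPN6 (-0.306 to 0.0582). The same held for hemin without nilotinib in JAK1 (-0.0131 to 0.303) and LYN (-0.180 to 0.0195), and for hemin with nilotinib in LYN (-0.0699 to 0.0951), CSF2RB (-0.442 to 0.0769) and EPOR (-0.315 to 0.0224). For the interaction it held in PTPN6 (-0.24 to 0.13), CSF2RB (-0.11 to 0.38) and LYN (-0.00881 to 0.204), while STAT3 ran from 0.46 to 0.68. The rises of EPOR with nilotinib kept their calls throughout, at 4.12 to 4.47 with hemin and 1.81 to 2.11 without it, as did its fall with hemin alone (-2.64 to -2.32). CSF2RB, with 7 to 101 reads a library, is the member whose precision depth limits most.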
